A study of Mus musculus with 72 samples.

Results

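The heat shock and cytosolic chaperone genes are 33 mouse genes whose proteins help other proteins fold, refold or assemble, together with the factors that switch these genes on. They were taken from a fixed list, which was chosen with earlier results of these data known. Each was found in the deposited count table by Ensembl identifier through the gene symbols of the authors' comparison table. All 33 were found among 51912 genes, and all 33 passed the filter on low counts that left 19362 genes to be tested. They are described here in the liver of mice fed diets of differing protein content, in 72 RNA sequencing libraries.

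Mice of the inbred strains C57BL/6J and DBA/2J, males (M) and females (F), were fed 1 of 3 diets, Control, Medium Protein or Low Protein, from 10 weeks of age for 13 weeks, at a room temperature of about 22 °C. They were killed by cervical dislocation at 23 weeks after a 16 h fast, and the livers were snap frozen. Strain, sex and diet gave 12 groups of 6 libraries. The protein content of each diet is not given in the sources used here, no transgene or drug is named for any group, and the additional strain that the series title lists was not analysed here. The labels do not state that each library came from its own animal, and some titles of a group share a number of unstated meaning, so the p-values below measure the spread between these samples.

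Chaperones bind proteins that have not reached or have lost their folded shape. In the cytosol the HSP70 proteins take up such clients with the help of HSP40 partners and HSP110 exchange factors and pass some of them on to HSP90, while the ring-shaped TRiC complex folds actin, tubulin and other proteins in an inner chamber. Many of these genes are raised by the transcription factor HSF1, which binds repeated 5-base units, the heat shock elements, when unfolded proteins build up, and the liver, a tissue of high protein synthesis, expresses most of them without stress.

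The promoter letters below are shown because Hspa1b, Hspa1a and Hspb1 were the most variable of the 33 genes and because their promoters hold heat shock element units. The letters are those of RefSeq on GRCm38.p6, read 5′ to 3′ on the strand of the gene, and lie wholly before its first base. Capitals mark matches to 2 adjoining units, GAANNTTC or TTCNNGAA, which were searched on both strands. Hspa1b lies at chr17:34959275-34959402 on the minus strand, Hspa1a at chr17:34972193-34972320 on the minus strand and Hspb1 at chr5:135887742-135887889 on the plus strand.
Hspa1b: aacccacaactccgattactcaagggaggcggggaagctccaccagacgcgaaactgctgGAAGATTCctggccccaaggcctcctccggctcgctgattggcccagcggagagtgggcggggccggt
Hspa1a: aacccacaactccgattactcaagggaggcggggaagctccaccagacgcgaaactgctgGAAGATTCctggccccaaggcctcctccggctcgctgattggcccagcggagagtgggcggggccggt
Hspb1: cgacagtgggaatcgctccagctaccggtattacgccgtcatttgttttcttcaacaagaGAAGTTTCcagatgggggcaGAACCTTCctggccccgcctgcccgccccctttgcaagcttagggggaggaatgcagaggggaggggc
The stretches of Hspa1a and Hspa1b, near-identical gene copies that both encode inducible HSP70, are the same letter for letter, and the 150 bases before their starts differed at 1 base. In both copies the match lay 104 to 97 bases before the start. The 2 matches of Hspb1, which encodes the small heat shock protein HSP27, lay between 117 and 90 bases before its start.

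Windows of 300 bases, from 250 before to 50 after a start, were at hand for 26 of the 33 genes. Of these, 15 genes (57.7%) held a 2-unit match, against 17.0% of the 27025 genes with such a window. Matches to 3 units, GAANNTTCNNGAA or TTCNNGAANNTTC, which contain the 2-unit motif, were found in 4 genes (15.4%), namely Chordc1, Hspd1, Hspe1 and Hsph1, against 0.662% of all genes. The windows of Hspd1 and Hspe1 overlap, since these genes start head to head on chromosome 1. Their matches are the same letters, read on opposite strands, so both genes hold the same site. A match is a description of the letters only and does not show binding.

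Library totals ran from 26.9 to 38.4 M counts with a median of 32.4 M, and the 33 genes together took 0.229 to 0.651% of the counts of a library. The 8 hepatocyte markers that had been listed were present in every group, with none at 0, and their summed level was 39216 to 90729.9 CPM (counts scaled to a common library size). In 12 libraries the share of ribosomal-like RNA was over 3 times the median of 0.148%. These were replicates 1, 3 and 6 of the C57BL/6J M Control group at 8.51, 0.924 and 21.8%, 5 and 6 of C57BL/6J M Medium Protein, 2 of C57BL/6J M Low Protein, 6 of C57BL/6J F Low Protein, 4 of DBA/2J M Control, 4 and 6 of DBA/2J M Medium Protein, 2 of DBA/2J M Low Protein and 3 of DBA/2J F Low Protein. Position-like codes in the labels follow the order of the groups, so position and group cannot be told apart. In bulk liver, fewer cells of a type and less RNA per cell cannot be told apart either.

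Per kilobase of exon, the most abundant of the 33 was Hspa8, the constitutive HSP70 of the cytosol, with a median over the 72 libraries of 203 CPM per kb. It was followed by Hsp90ab1, the constitutive HSP90, at 181 CPM per kb, and by the mitochondrial chaperones Hspd1 (HSP60) at 126 CPM per kb and Hspa9 (mortalin) at 84.8 CPM per kb. The subunits of TRiC lay between 8.50 CPM per kb for Cct7 and 29.7 CPM per kb for Cct5. At the low end stood Hsf1, the main heat shock factor, at 0.841, Cryab, a small heat shock protein of lens and muscle, at 0.822, Hspa1b at 0.715 and Hspa1a at 0.0473 CPM per kb.

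The spread between the 6 libraries of a group also differed among the genes. The pooled within-group standard deviation (SD) of log2 CPM was 1.26 for Hspa1a, 1.22 for Hspa1b, 0.80 for Hspb1, 0.68 for Hsph1, an HSP110 exchange factor, and 0.52 for Hsp90aa1, the inducible HSP90. The smallest values were 0.103 for Dnaja2, an HSP40 partner of Hspa8, 0.104 for Hspa9 and 0.106 for Cct2. The median of the 33 genes was 0.236 against 0.304 for all genes tested. In DBA/2J M Control, Hspa1b stood at 23.3 and 28.5 CPM in replicates 3 and 6 and at no more than 2.83 CPM in the other 4, so the group mean rests on those 2 libraries. In DBA/2J M Low Protein, replicates 5 and 6 stood at 21.5 and 26.5 CPM. The high libraries of both groups carried the letter N, of unstated meaning, in their titles. Control replicate 4 and Low Protein replicate 2 carried it as well.

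**Figure D1:**
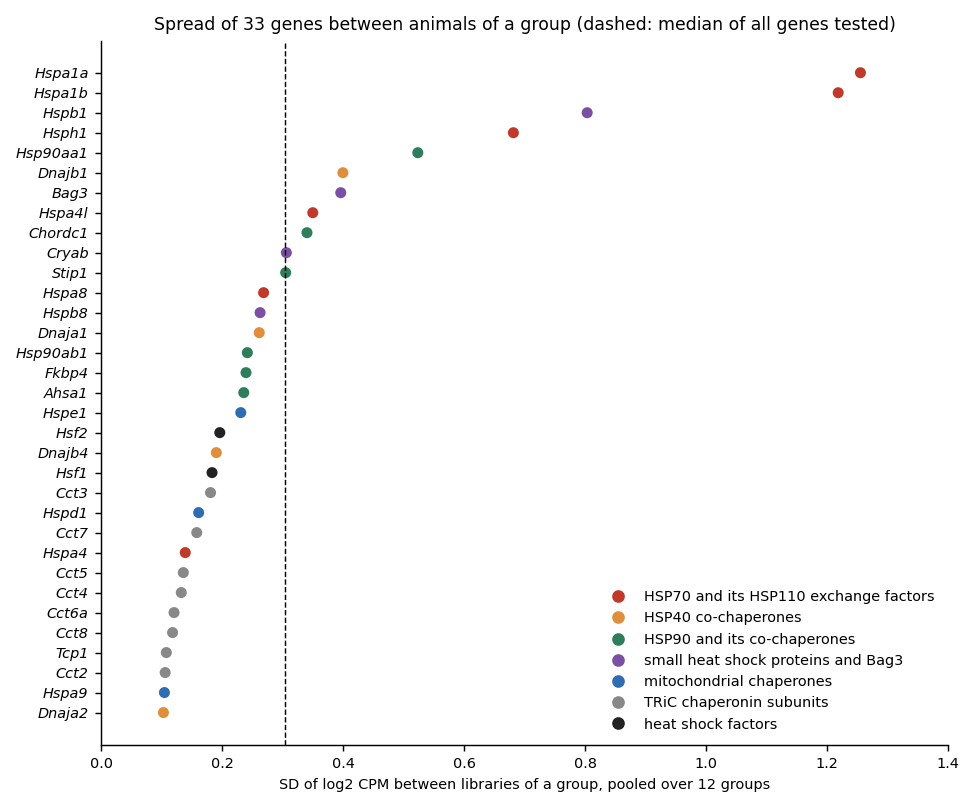
Points, coloured by the role of the gene, give the pooled within-group SD of log2 CPM (prior count 2) of the 33 genes over the 12 groups. The dashed line gives the median of all genes tested. Hspa1a and Hspa1b stand furthest right at 1.26 and 1.22, and Dnaja2 lowest at 0.103.

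The first question of the design was whether diets lower in protein change liver expression, and whether strain and sex alter that change. Low Protein was compared with Control for males and females of each strain. In C57BL/6J males 16 of the 33 chaperone genes rose and 0 fell, and 32 of the 33 fold changes were above 0. Over all genes tested 9.78% were called in this comparison and 4.08% were called higher. The 33 genes were chosen with earlier results of these data known, so these shares stand beside the counts as a description only. With library totals in place of scaling factors, which raised the median of all genes by 0.25 (log2), 26 chaperone genes were called higher and 0 lower, and the share called higher among all called genes went from 41.7 to 94.4%. The median log2 fold change of the 33 genes was 0.29, against 0.01 for all genes tested. Calls rest on edgeR's quasi-likelihood test with p-values adjusted by Benjamini-Hochberg across every gene tested, at a threshold of 0.05. Log2 fold changes are given with their standard error (SE).

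Of the small heat shock proteins and their partner, Hspb1 changed and 3 of 4 genes did not pass the test. Hspb1 ranged from 2.87 to 3.97 CPM with a median of 3.29 in C57BL/6J M Control and from 4.95 to 35.8 CPM with a median of 15.5 on Low Protein. The lowest Low Protein library lay above the highest Control library. The fitted log2 change was 2.46 ± 0.46, adjusted p = 0.000113, a 5.52-fold higher level and the largest of the 33. Hspb8, a small heat shock protein that works with Bag3, had a log2 fold change of 0.06 ± 0.15, adjusted p = 0.873. Values were 0.15 ± 0.19, adjusted p = 0.697 for Cryab and 0.27 ± 0.22, adjusted p = 0.509 for Bag3, an HSP70 co-chaperone that steers clients to autophagy.

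All 6 genes of HSP90 and its co-chaperones rose, with a median log2 fold change of 0.59. Hsp90aa1 ranged from 93.8 to 147 CPM with a median of 122 on Control and from 138 to 445 CPM with a median of 291 on Low Protein. In 5 of 6 Low Protein libraries it was above every Control library. The log2 fold change came to 1.28 ± 0.30, adjusted p = 0.00196. Hsp90ab1 ranged from 518 to 602 CPM with a median of 557 on Control and from 619 to 1036 CPM with a median of 827 on Low Protein, with no overlap between the groups. Its log2 fold change was 0.56 ± 0.14, adjusted p = 0.00428.

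Stip1, the adaptor (Hop) that holds HSP70 and HSP90 together, ranged from 33.6 to 38.4 CPM with a median of 36.2 on Control and from 42.9 to 82.5 CPM with a median of 62.0 on Low Protein. The groups did not overlap, and the log2 fold change was 0.81 ± 0.17, adjusted p = 0.000748. The remaining co-chaperones were Chordc1 at 0.63 ± 0.19, adjusted p = 0.0237, Ahsa1, which speeds the ATP cycle of HSP90, at 0.52 ± 0.13, adjusted p = 0.00564, and Fkbp4, a prolyl isomerase of steroid receptor complexes, at 0.41 ± 0.13, adjusted p = 0.0362. For these 3 genes between 4 and 5 of the 6 Low Protein libraries exceeded every Control library.

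Among HSP70 and its HSP110 exchange factors 1 of 6 genes was called. Hspa4l, an HSP110 family member, ranged from 16.6 to 25.1 CPM with a median of 19.9 on Control and from 22.6 to 61.6 CPM with a median of 41.7 on Low Protein. Of the Low Protein libraries, 5 of 6 lay above every Control library. The fitted log2 change was 1.01 ± 0.20, adjusted p = 0.000253, a 2.02-fold higher level.

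The other 5 genes of the group did not pass the test. Hspa8 ranged from 1058 to 1334 CPM with a median of 1199 on Control and from 1179 to 2086 CPM with a median of 1556 on Low Protein, with 5 of 6 Low Protein libraries above every Control library. The log2 fold change was 0.43 ± 0.15, adjusted p = 0.0598, short of the threshold. Hsph1 ranged from 31.0 to 61.3 CPM with a median of 44.9 and from 34.9 to 119 CPM with a median of 89.1 in the same groups, with a log2 fold change of 0.84 ± 0.37, adjusted p = 0.154. Both groups of Hsph1 overlapped. Hspa4 had a log2 fold change of 0.20 ± 0.08, adjusted p = 0.107.

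Hspa1b ranged from 1.28 to 9.40 CPM with a median of 5.77 on Control and from 2.94 to 22.6 CPM with a median of 11.3 on Low Protein, and 3 of 6 Low Protein libraries exceeded every Control library. The log2 fold change of 1.15 had a 95% interval of -0.08 to 2.37 and an adjusted p of 0.266. Its copy Hspa1a ranged from 0.111 to 1.57 CPM on Control and from 0 to 1.21 CPM on Low Protein, with a log2 fold change of -0.89 ± 0.76, adjusted p = 0.525. Hspa1a was the one member with a value below 0. Reads of the copies are shared out by the authors' estimation, so the value of either copy alone is less certain than their sum.

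Of the HSP40 genes, whose proteins load clients onto HSP70, 1 of 4 was called. Dnaja2 ranged from 56.8 to 63.0 CPM with a median of 60.6 on Control and from 60.7 to 80.9 CPM with a median of 69.5 on Low Protein, with 5 of 6 Low Protein libraries above every Control library. The fitted log2 change was 0.23 ± 0.06, adjusted p = 0.00777. Values for the remaining members were 0.28 ± 0.15, adjusted p = 0.242 for Dnaja1, 0.29 ± 0.23, adjusted p = 0.478 for Dnajb1, the stress-inducible HSP40, and 0.02 ± 0.11, adjusted p = 0.953 for Dnajb4.

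Of the mitochondrial chaperones 2 of 3 were called. Hspd1 ranged from 299 to 349.8 CPM with a median of 309 on Control and from 354 to 479.7 CPM with a median of 418 on Low Protein, with no overlap between the groups. In the fit it changed by a log2 value of 0.38 ± 0.09, adjusted p = 0.0032. Hspe1, the lid (HSP10) of the HSP60 chamber, ranged from 31.6 to 39.9 CPM with a median of 35.8 and from 38.0 to 62.5 CPM with a median of 52.4 in the same groups, with 4 of 6 Low Protein libraries above every Control library. The log2 fold change came to 0.49 ± 0.13, adjusted p = 0.00808. Hspa9, the HSP70 of the mitochondrion, had a log2 fold change of 0.17 ± 0.06, adjusted p = 0.081.

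Of the 8 subunits of TRiC, 5 rose, with log2 fold changes from 0.22 to 0.38. Cct5 ranged from 72.1 to 82.4 CPM with a median of 79.2 on Control and from 89.3 to 105 CPM with a median of 98.1 on Low Protein, with no overlap. Its log2 fold change was 0.32 ± 0.08, adjusted p = 0.00401. The other called subunits were Cct3 at 0.38 ± 0.10, adjusted p = 0.00914, Cct7 at 0.32 ± 0.09, adjusted p = 0.0138, Cct8 at 0.23 ± 0.07, adjusted p = 0.0245 and Cct6a at 0.22 ± 0.07, adjusted p = 0.0317. Tcp1, the first subunit of the ring, ranged from 107 to 118 CPM on Control and from 119.6 to 134 CPM on Low Protein without overlap, yet its log2 fold change of 0.17 ± 0.06, adjusted p = 0.0773 did not pass the threshold. Cct2 at 0.18 ± 0.06, adjusted p = 0.0602 and Cct4 at 0.04 ± 0.08, adjusted p = 0.823 were not called either.

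The heat shock factors themselves did not pass the test. Hsf1 ranged from 6.56 to 7.39 CPM with a median of 7.08 on Control and from 5.98 to 9.60 CPM with a median of 7.54 on Low Protein, with a log2 fold change of 0.09 ± 0.11, adjusted p = 0.655 and a 95% interval of -0.11 to 0.30. Hsf2, a related factor, had a log2 fold change of 0.07 ± 0.11, adjusted p = 0.763. Groups of both factors overlapped.

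**Figure D2:**
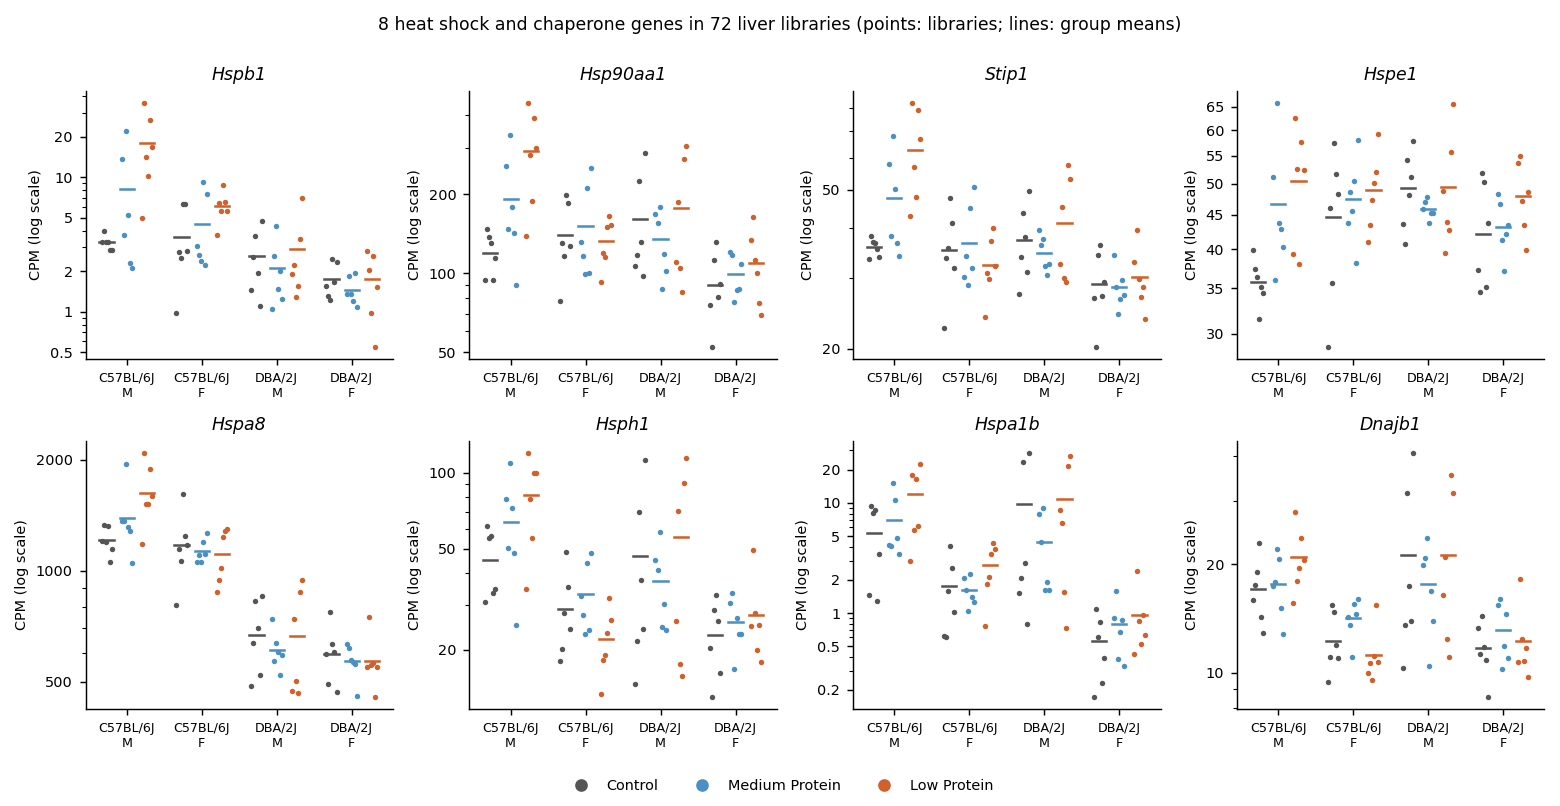
Each point is 1 library and each line a group mean, in CPM on a log axis, by strain and sex and coloured by diet, for 8 genes. In C57BL/6J M, Low Protein libraries of Hspb1 at 4.95 to 35.8 CPM and of Stip1 at 42.9 to 82.5 CPM lie above all Control libraries, and Hspa1b is spread widely within groups.

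The calls in C57BL/6J males moved with the share of ribosomal-like RNA, which was high in 3 of the 6 Control libraries and 1 of the 6 Low Protein libraries. Without the 12 libraries named above, 1 of the 16 genes was called. The share of all genes called in that fit is not given here, so the loss cannot be called particular to these genes. Hspb1 kept a log2 fold change of 2.12 (adjusted p = 0.0188). All 16 kept their sign, with log2 fold changes from 0.13 for Cct8 to 2.12, and their adjusted p-values reached 0.456. The part of ribosomal-like RNA in the other 15 calls cannot be told apart from the loss of 4 of the 12 libraries compared. With the log2 of its share as a term of the fit, added after seeing the data, 13 of the 16 were called, and Chordc1 (adjusted p = 0.0515), Cct6a (0.0569) and Cct8 (0.061) were not.

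With each of the 12 libraries of this comparison left out in turn, between 11 and 18 chaperone genes were called. In all 12 fits 10 genes were called, namely Hspa4l, Hsp90aa1, Hsp90ab1, Stip1, Ahsa1, Hspb1, Hspd1, Hspe1, Cct3 and Cct5. Dnaja2 was lost without Low Protein replicate 5 (adjusted p = 0.0509), and Cct7 without Low Protein replicate 2 or 5 (adjusted p up to 0.0871). Cct6a was lost without Control replicate 1, 5 or 6 or Low Protein replicate 2 (up to 0.132), and Chordc1 without Control replicate 1 or 5 or Low Protein replicate 2, 5 or 6 (up to 0.0809). Fkbp4 and Cct8 were called in 5 of 12 fits each, with adjusted p-values up to 0.123 and 0.0873. Both were lost without Control replicate 1, 5 or 6 or Low Protein replicate 2 or 5, Fkbp4 also without Control replicate 4 or Low Protein replicate 6, and Cct8 also without Control replicate 3 or Low Protein replicate 3.

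Markers of other cells were read in the same comparison. Red blood cell genes were higher for 4 of the 6 tested, with a summed level of 126 to 259 CPM on Control and 168 to 478 CPM on Low Protein. Hepatocyte genes were lower for 2 of 8, at 66419 to 79506 CPM on Control and 59566 to 90729.9 CPM on Low Protein. Adipocyte genes were higher for 1 of 3 tested, and the summed level of the 6 listed was 7.07 to 13.2 CPM on Control and 16.4 to 38.7 CPM on Low Protein, without overlap. None of 10 macrophage, 10 stellate cell and fibroblast, 8 endothelial, 6 cholangiocyte, 9 T, B and NK cell or 2 neutrophil genes was called in either direction. The part of these cells in the chaperone values was not tested.

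In C57BL/6J females 0 of the 33 genes were called on Low Protein, where 3.25% of all genes were. The edgeR test gave 3 chaperone genes an unadjusted p below 0.05, and DESeq2 called 1, Tcp1, at -0.20 (adjusted p = 0.0422). The same gene was called in edgeR, at an adjusted p between 0.0234 and 0.0456, without Control replicate 1 or 3 or Low Protein replicate 5 or 6. Hspb1 ranged from 0.969 to 6.37 CPM with a median of 2.78 on Control and from 3.71 to 8.82 CPM with a median of 5.99 on Low Protein, and the groups overlapped. In the fit it changed by a log2 value of 0.76 ± 0.44, adjusted p = 0.403. Hsp90aa1 had a log2 fold change of -0.07 ± 0.29, adjusted p = 0.941, with a 95% interval of -0.64 to 0.50. Of the 33 fold changes 13 were above 0, and their median was -0.05. Cell markers also varied among the Low Protein libraries of these females. The hepatocyte sum fell to 39216 CPM against a group median of 75533 CPM. The macrophage sum reached 1083 CPM against a median of 278 CPM. The part of cell content in these values and in the male minus female differences below was not tested.

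In DBA/2J males 0 of the 33 genes were called on Low Protein, and 0.093% of all genes were. An unadjusted p below 0.05 was reached by 2 of the 33, and DESeq2 called 0. Hspb1 ranged from 1.11 to 4.71 CPM with a median of 2.25 on Control and from 1.29 to 7.00 CPM with a median of 2.07 on Low Protein, with a log2 fold change of 0.18 ± 0.47, adjusted p = 0.973. Stip1 ranged from 27.4 to 49.6 CPM and from 29.4 to 57.6 CPM in the same groups, with a log2 fold change of 0.15 ± 0.17, adjusted p = 0.902 and a 95% interval of -0.19 to 0.48. Both genes overlapped between diets. In DBA/2J females 0 genes were called in edgeR and DESeq2 against a background of 0.816%, and 0 reached an unadjusted p below 0.05. There Hspb1 ranged from 1.22 to 2.45 CPM on Control and from 0.544 to 2.84 CPM on Low Protein. Its interval of -0.93 to 0.96 around a log2 fold change of 0.01 still allowed a change of nearly 1 log2 unit in either direction.

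**Figure D3:**
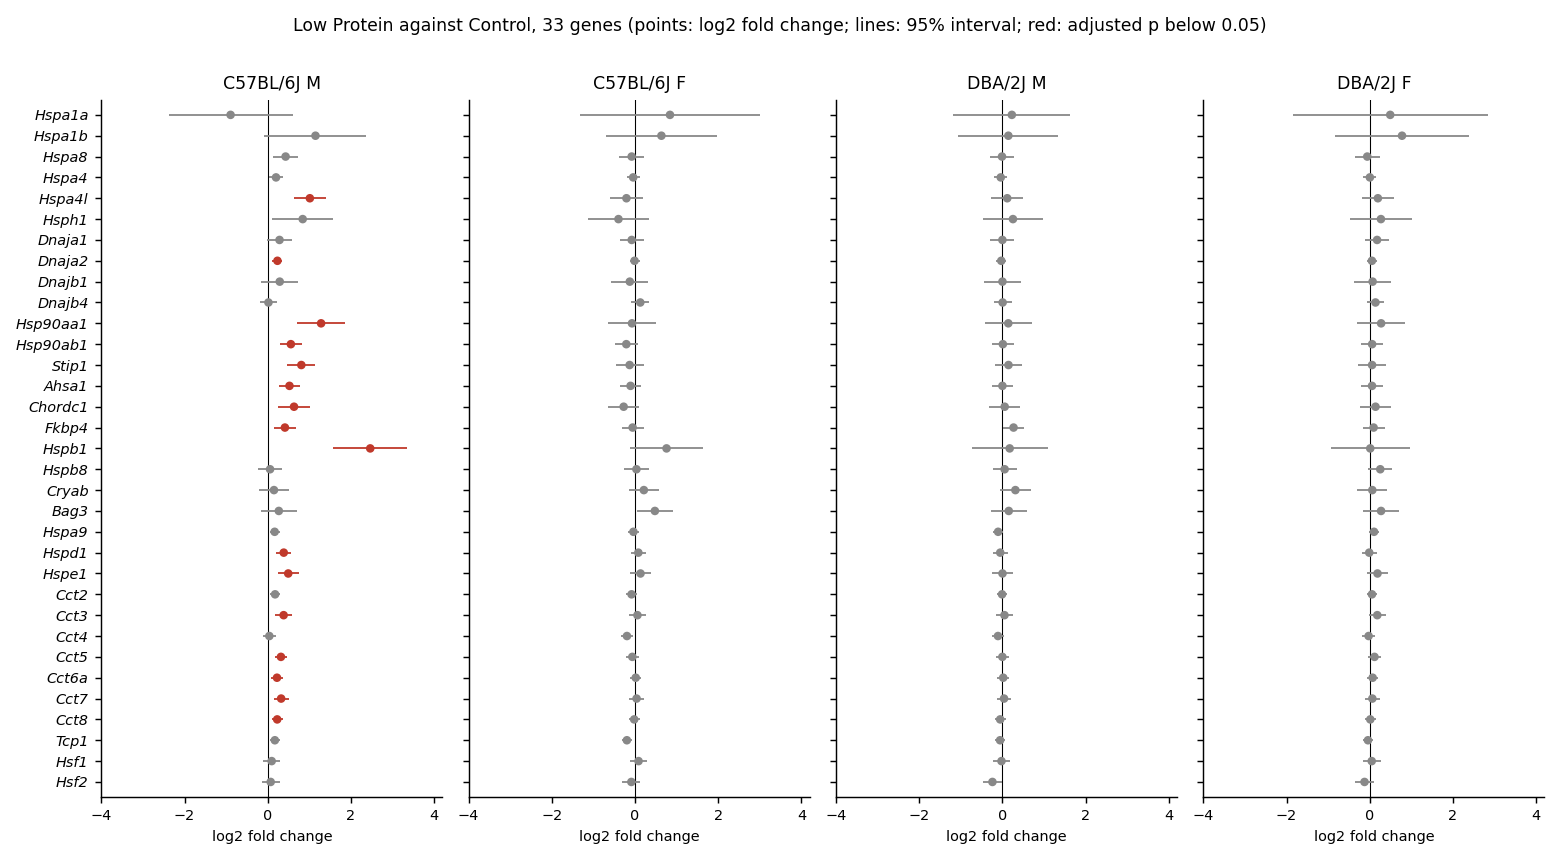
Log2 fold changes of Low Protein over Control with 95% intervals for the 33 genes, 1 panel for each strain and sex, with red for an adjusted p below 0.05. The C57BL/6J M panel holds 16 red genes, from Cct6a at 0.22 to Hspb1 at 2.46, and the other 3 panels hold 0.

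Whether the Low Protein effect differed between sexes or strains was tested directly. In C57BL/6J the effect was larger in males than in females for 8 of the 33 genes and smaller for 0, with 4.56% of all genes called. The differences in log2 fold change, male minus female, were 1.22 ± 0.28, adjusted p = 0.00577 for Hspa4l and 0.37 ± 0.09, adjusted p = 0.011 for Tcp1, and for Hsp90ab1 0.77 ± 0.19, adjusted p = 0.0142. Stip1 differed by 0.94 ± 0.24, adjusted p = 0.0158. These 4 genes stayed called in all 24 fits with 1 library left out. Tcp1 combined 0.17 in males with -0.20 in females, neither of which passed the test by itself.

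The other 4 differences were nearer the threshold, at 0.38 ± 0.11, adjusted p = 0.0315 for Cct5, 0.63 ± 0.19, adjusted p = 0.0392 for Ahsa1, 0.91 ± 0.27, adjusted p = 0.0399 for Chordc1 and 1.36 ± 0.41, adjusted p = 0.0433 for Hsp90aa1. They were called in 15, 12, 12 and 8 of the 24 fits with 1 library left out, with adjusted p-values up to 0.0726, 0.0846, 0.0773 and 0.0905. All 4 were lost without M Control replicate 1, M Low Protein replicate 2 or 5, F Control replicate 4 or 5 or F Low Protein replicate 1, 2 or 3. Cct5 was also lost without F Control replicate 2, and Ahsa1 without M Control replicate 4 or 5 or M Low Protein replicate 3 or 6. Chordc1 was also lost without F Control replicate 6, M Control replicate 3 or 5 or M Low Protein replicate 6, and Hsp90aa1 without F Control replicate 2 or 6, M Control replicate 3, 4, 5 or 6 or M Low Protein replicate 3 or 6. The count fell to 4 without C57BL/6J M Control replicate 1, M Low Protein replicate 2 or 5, F Control replicate 4 or 5 or F Low Protein replicate 1, 2 or 3, and to 5 without M Control replicate 5 or M Low Protein replicate 6. Without the ribosomal-rich libraries 0 of the 8 were called, with adjusted p-values from 0.0573 to 0.177 and the same signs, and with the share as a term 3 were called. Hspb1, whose effect in males was the largest, differed by 1.71 ± 0.63, adjusted p = 0.102 between the sexes. In DBA/2J 0 genes differed in edgeR, of the 33 and of all genes tested (0%), with 1 of the 33 at an unadjusted p below 0.05 and 0 called by DESeq2.

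Between males of the strains 2 of the 33 differences were called, with 2.88% of all genes. The Low Protein effect on Hspb1 was lower in DBA/2J than in C57BL/6J by a log2 difference of -2.29 ± 0.65, adjusted p = 0.0361, and on Hspd1 by -0.44 ± 0.13, adjusted p = 0.0498. They were called in 14 and 7 of the 24 fits with 1 library left out, with adjusted p-values up to 0.0933 and 0.103, and 20 of those fits moved the count by over 1.5 times, to between 0 and 4. Hspb1 was lost without C57BL/6J M Control replicate 3 or 5, C57BL/6J M Low Protein replicate 2 or 5, DBA/2J M Control replicate 3 or 6 or DBA/2J M Low Protein replicate 1, 2, 3 or 4. Hspd1 was lost without C57BL/6J M Control replicate 1, 3, 4, 5 or 6, C57BL/6J M Low Protein replicate 2, 3, 5 or 6, DBA/2J M Control replicate 1, 3, 4, 5 or 6 or DBA/2J M Low Protein replicate 1, 3 or 4. In all, 31 of the 33 differences were below 0. Between females edgeR and DESeq2 called 0 of 33, with a background of 0.093% and 0 of the 33 at an unadjusted p below 0.05. Between males, DESeq2 called Hspa4l as well, at -0.90 (adjusted p = 0.0322), and Hspa9 at -0.28 (adjusted p = 0.0425). For males a fit of the compared groups alone also called Cct5 at -0.32 (adjusted p = 0.0452).

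Averaged over the 4 combinations, Low Protein raised 3 of the 33 genes (9.09%), a share near the background of 8.01%. These were Hspb1 at 0.85 ± 0.23, adjusted p = 0.0115, Hspe1 at 0.20 ± 0.06, adjusted p = 0.0383 and Cct3 at 0.17 ± 0.05, adjusted p = 0.0291. The mean takes in the C57BL/6J males, in whom all 3 were called. Hspb1 was called in all 48 fits with 1 library left out, Cct3 in 45 and Hspe1 in 30. Between 1 and 7 chaperone genes were called in those fits. There were 7 without DBA/2J M Control replicate 6, 5 without C57BL/6J M Low Protein replicate 1, C57BL/6J F Control replicate 4 or DBA/2J M Low Protein replicate 3 or 4, and 1 without DBA/2J M Low Protein replicate 6 or DBA/2J F Control replicate 2.

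The Medium Protein diet gave 0 calls among the 33 genes in all 4 combinations. In C57BL/6J males, where 0.418% of all genes were called, 30 of 33 fold changes were above 0 with a median of 0.17, and 14 had an unadjusted p below 0.05. Hspb1 ranged from 2.10 to 22.0 CPM with a median of 4.45 on Medium Protein, overlapping Control, with a log2 fold change of 1.32 ± 0.45, adjusted p = 0.22. Hspa4l had a log2 fold change of 0.69 ± 0.20, adjusted p = 0.0985. Hsf2 ranged from 19.2 to 28.9 CPM with a median of 23.6 on Medium Protein and from 25.9 to 38.8 CPM with a median of 32.0 on Control, with a log2 fold change of -0.43 ± 0.11, adjusted p = 0.0538. DESeq2 called Hsf2 in this comparison (-0.43, adjusted p = 0.0361). The Low Protein and Medium Protein comparisons share the Control libraries, so their values do not support each other.

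In C57BL/6J females 0% of all genes were called on Medium Protein, in DBA/2J males 0.00516% and in DBA/2J females 0.00516%. In DBA/2J males 32 of the 33 fold changes were below 0, with a median of -0.11, and all adjusted p-values were 1. The Control group of these males holds the libraries with high Hspa1b named above. In these 3 comparisons edgeR and DESeq2 called 0 of the 33 genes, and edgeR gave 0 an unadjusted p below 0.05.

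Low Protein was also set against Medium Protein. In C57BL/6J males 2 of 33 genes rose (6.06%), a share near the 6.53% of all genes called. They were Cct5 at 0.26 ± 0.08, adjusted p = 0.0303 and Hsf2 at 0.50 ± 0.11, adjusted p = 0.00168. The median of Hsf2 was lowest on Medium Protein, and Control and Low Protein, with medians of 32.0 and 32.7 CPM, overlapped. Hspb1 had a log2 fold change of 1.14 ± 0.43, adjusted p = 0.102 and was not called in edgeR, while limma-voom called it at 1.42 (adjusted p = 0.0113), the fit with 1 library per title number at 1.77 (adjusted p = 0.0126) and library totals at 1.30 (adjusted p = 0.0328). In C57BL/6J females 0 were called (background 1.94%), in DBA/2J males 0 (0%) and in DBA/2J females 0 (0.0413%), in edgeR and in DESeq2. In the same order 2, 3 and 0 of the 33 genes had an unadjusted p below 0.05 in edgeR.

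The authors' deposited table gave 16 chaperone genes as higher on Low Protein than on Control in C57BL/6J males, and all 16 were the genes called here. For Low Protein against Medium Protein in the same males, the authors' deposited table called 3, namely Cct5, Hsf2 and Hspb1. In its other 10 diet comparisons it called 0 of the 33.

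Sex was compared on the Control diet. In C57BL/6J 4 genes were higher in males and 3 lower (21.2% of the 33), a share near the background of 20.8%. Hspa1a ranged from 0.111 to 1.57 CPM with a median of 0.788 in males and from 0 to 0.123 CPM with a median of 0.0829 in females, with 5 of 6 males above every female, and a log2 fold change of 3.59 ± 0.95, adjusted p = 0.00401. These levels are near the floor, with Hspa1a at 0 in 13 libraries of the series. Its more abundant copy Hspa1b was not called in this comparison. Hsf1 ranged from 6.56 to 7.39 CPM with a median of 7.08 in males and from 5.07 to 6.26 CPM with a median of 5.35 in females, without overlap. The fitted log2 change was 0.36 ± 0.11, adjusted p = 0.0113. Hsf2 was higher by 0.40 ± 0.11, adjusted p = 0.00619 and Fkbp4 by 0.41 ± 0.13, adjusted p = 0.0222. The genes lower in males were Hspa9 at -0.20 ± 0.06, adjusted p = 0.0146, Cct6a at -0.22 ± 0.07, adjusted p = 0.021 and Cct2 at -0.18 ± 0.06, adjusted p = 0.0343.

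In DBA/2J 11 genes were higher in males and 0 lower, at a background of 18.3%. Hspa1b ranged from 0.792 to 28.5 CPM with a median of 2.46 in males and from 0.172 to 1.09 CPM with a median of 0.501 in females, and 5 of 6 males exceeded every female. Its log2 fold change was 4.14 ± 0.76, adjusted p = 2.96e-05. As given above, the male mean of Hspa1b rests on replicates 3 and 6, so the fitted value exceeds what the medians show. Every fit with 1 library left out kept 1 or both of these libraries. Hspa1a had a log2 fold change of 4.25 ± 0.96, adjusted p = 0.000711, but its levels were 0 to 3.82 CPM in males and 0 to 0.164 CPM in females. Hspa4 ranged from 94.8 to 123 CPM with a median of 102 in males and from 67.9 to 91.2 CPM with a median of 82.6 in females, without overlap. In the fit it changed by a log2 value of 0.37 ± 0.08, adjusted p = 0.000369.

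All 4 HSP40 genes were among the 11 genes higher in DBA/2J males. The log2 fold changes were 0.86 ± 0.23, adjusted p = 0.0041 for Dnajb1, 0.64 ± 0.15, adjusted p = 0.000944 for Dnaja1, 0.39 ± 0.11, adjusted p = 0.00703 for Dnajb4 and 0.23 ± 0.06, adjusted p = 0.00487 for Dnaja2. Dnajb1 ranged from 10.3 to 40.7 CPM with a median of 15.6 in males and from 8.57 to 14.4 CPM with a median of 11.5 in females, with 3 of 6 males above every female. The remaining genes were Hsph1 at 1.03 ± 0.38, adjusted p = 0.046, Hsp90aa1 at 0.83 ± 0.29, adjusted p = 0.0381, Bag3 at 0.63 ± 0.22, adjusted p = 0.0412 and Chordc1 at 0.61 ± 0.19, adjusted p = 0.0195. Of the TRiC subunits 0 of 8 were called in DBA/2J, where the largest was 0.19 ± 0.10, adjusted p = 0.193 for Cct3.

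The number of chaperone genes called in each direction between the sexes depended on the scaling. With library totals in place of scaling factors, which moved the median of all genes by -0.337 in C57BL/6J and -0.282 in DBA/2J, 1 chaperone gene was higher and 16 lower in C57BL/6J males, and 3 were higher and 2 lower in DBA/2J males. Over all genes tested, the share higher in males among those called then went from 55.8 to 5.32% in C57BL/6J and from 57.1 to 7.59% in DBA/2J. Hspa1a in both strains and Hspa1b and Dnajb1 in DBA/2J were called higher under both scalings, and of the called sex differences Dnaja2 in DBA/2J alone changed sign, to -0.05 (adjusted p = 0.594).

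The sex differences also leaned on single libraries. In DBA/2J the count was 7 without M Control replicate 3, 6 without M Control replicate 6 and 7 without F Control replicate 2. Hsph1 and Hsp90aa1 were called in 6 of 12 such fits and lost without M Control replicate 3 or 6 or F Control replicate 1, 2, 5 or 6. Bag3 was called in 5 and lost without M Control replicate 3 or 6 or F Control replicate 1, 2, 3, 4 or 6. Chordc1 was called in 9 and lost without M Control replicate 3 or 6 or F Control replicate 2. Dnajb1 was called in 11 (adjusted p = 0.0668 without M Control replicate 6), and the other 6 genes were called in all 12. Without the ribosomal-rich libraries 9 of the 11 were called, with Hsph1 at 0.0566 and Bag3 at 0.0584. In C57BL/6J Fkbp4 was lost without F Control replicate 1, 2 or 6, Cct2 without F Control replicate 2, 5 or 6 or M Control replicate 1 or 4, and Cct6a without F Control replicate 2, 5 or 6 or M Control replicate 1 or 5. The count was 4 without F Control replicate 2 or 6, and without the ribosomal-rich libraries it was 2, Hspa1a at 3.97 and Hsf2 at 0.48. Ribosomal-like genes were themselves higher in males, for 3 of 4 in C57BL/6J and 2 of 4 in DBA/2J, and their part in the sex differences was not tested.

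Averaged over the 3 diets, an alternative added after seeing the data, 20 genes differed between the sexes in C57BL/6J, 18 of them higher in males, and 19 differed in DBA/2J. Hspa1b was then called in C57BL/6J as well, at a log2 fold change of 1.97 (adjusted p = 2.5e-05), as was Hsph1 at 1.16 (adjusted p = 1.3e-05). This average includes the Low Protein libraries, in which the C57BL/6J males differed from the Control males. It also uses more libraries than Control alone. The share of all genes called in it is not given here, so its counts are a description only.

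The strains were compared on the Control diet within each sex. In males 4 of the 33 genes were higher in DBA/2J and 1 lower, at a background of 30.5%. In females 0 were higher and 7 lower, at a background of 27.8%. The share of chaperone genes called was below that of all genes in both comparisons.

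Hspa8 was lower in DBA/2J in both sexes. It ranged from 1058 to 1334 CPM with a median of 1199 in C57BL/6J males and from 487 to 852 CPM with a median of 668 in DBA/2J males, without overlap. The log2 fold change of DBA/2J over C57BL/6J was -0.85 ± 0.15, adjusted p = 8.46e-06. In females it ranged from 806 to 1611 CPM with a median of 1159 in C57BL/6J and from 469 to 772 CPM with a median of 598 in DBA/2J, again without overlap, with a log2 fold change of -0.98 ± 0.15, adjusted p = 4.46e-07. Both differences were called in every fit with 1 library left out and without the ribosomal-rich libraries. The counts of Hspa8 were not whole in any library, so part of its reads matched other loci as well, and whether reads of the strains map alike was not tested.

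Hspa4 ranged from 94.8 to 123 CPM in DBA/2J males, above all C57BL/6J males at 75.8 to 92.6 CPM, with a log2 fold change of 0.33 ± 0.08, adjusted p = 0.000784. Hspe1 ranged from 40.7 to 57.9 CPM and from 31.6 to 39.9 CPM in the same groups, without overlap, with a log2 fold change of 0.46 ± 0.13, adjusted p = 0.00436. Cct3 at 0.28 ± 0.10, adjusted p = 0.0306 and Hspa9 at 0.18 ± 0.06, adjusted p = 0.0226 were also higher in DBA/2J males. With 1 library left out, Cct3 was lost without C57BL/6J M Control replicate 1, 5 or 6 or DBA/2J M Control replicate 3 or 6 (adjusted p up to 0.0952), and Hspa9 without DBA/2J M Control replicate 3 or 6 (up to 0.0793). Without DBA/2J M Control replicate 3 or 6 the count of called genes fell to 3, as it did without the ribosomal-rich libraries. Over the 3 diets, the alternative added after seeing the data, the split turned to 1 higher and 10 lower in DBA/2J males, and in females it was 1 higher and 18 lower. The share of all genes called over the 3 diets is not given here, so these counts cannot be set against the shares on Control. Hspb1 was among the genes lower in DBA/2J males over the 3 diets, at -1.64 (adjusted p = 3.17e-07), but was not called in males on Control alone. The average over diets includes the Low Protein libraries, and the Low Protein effect on Hspb1 was lower in DBA/2J males than in C57BL/6J males.

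In females the other genes lower in DBA/2J were Hspa4l at -0.54 ± 0.20, adjusted p = 0.0313, Dnaja2 at -0.31 ± 0.06, adjusted p = 3.77e-05, Hspa9 at -0.17 ± 0.06, adjusted p = 0.0335, Cct2 at -0.23 ± 0.06, adjusted p = 0.00296, Cct6a at -0.20 ± 0.07, adjusted p = 0.0251 and Cct8 at -0.23 ± 0.07, adjusted p = 0.00818. Dnaja2 ranged from 55.0 to 66.0 CPM with a median of 63.6 in C57BL/6J and from 44.5 to 58.5 CPM with a median of 48.5 in DBA/2J. In 5 of 6 DBA/2J females it was below every C57BL/6J female. The count of called genes was 12 without C57BL/6J F Control replicate 1, 3 without C57BL/6J F Control replicate 5 and 4 without DBA/2J F Control replicate 1 or 5. Hspa4l, Hspa9 and Cct6a were each lost without C57BL/6J F Control replicate 5 or DBA/2J F Control replicate 1, 2 or 5 (adjusted p up to 0.0974, 0.11 and 0.087). Hspa4l was also lost without C57BL/6J F Control replicate 3 or 4, Hspa9 without 2, 4 or 6 and Cct6a without 2 or 6 of that group, and Cct8 was lost without replicate 5 of it (adjusted p = 0.0532). Hspb1 had a log2 fold change of -1.04 ± 0.47, adjusted p = 0.0904 and was not called on Control alone, while over the 3 diets it was -1.48 (adjusted p = 4.06e-06).

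**Figure D4:**
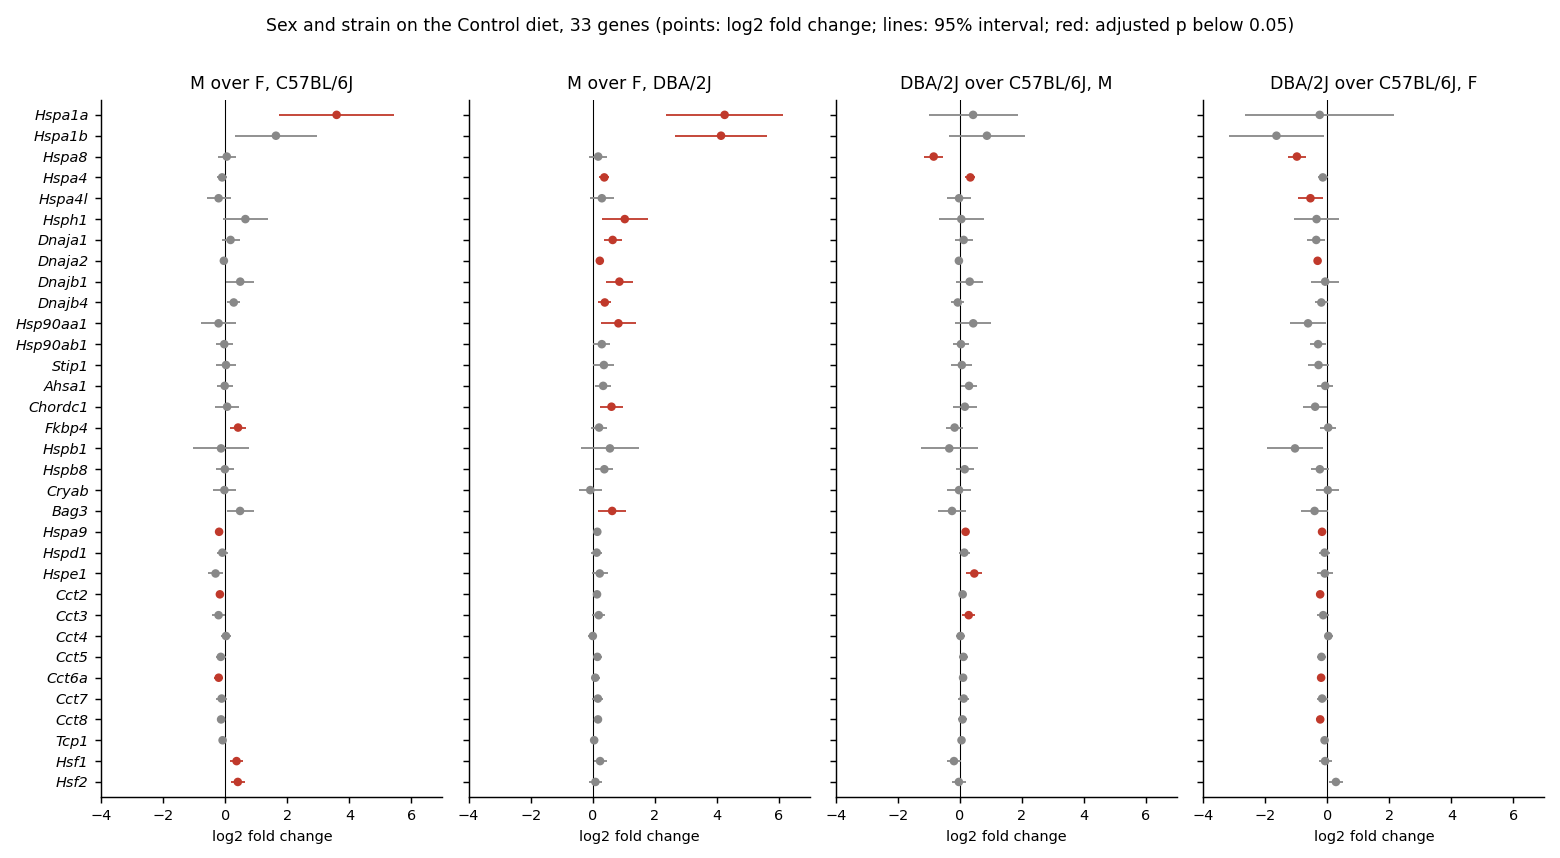
Log2 fold changes with 95% intervals on the Control diet for the 33 genes, males over females in each strain and DBA/2J over C57BL/6J in each sex, with red for an adjusted p below 0.05. Hspa8 lies at -0.85 and -0.98 in the strain panels, and Hspa1b at 4.14 in the DBA/2J sex panel.

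Within groups several pairs of chaperone genes varied together. After each group's mean was subtracted, 9 pairs were correlated over the 72 libraries, with permutation tests (100000 resamples within groups, two-sided) adjusted over the pairs. Hspa1b and its HSP40 partner Dnajb1 had Pearson r = 0.82 and Spearman rho = 0.77, with r = 0.78 without the 2 libraries farthest from the median of Hspa1b and a positive r in all 12 groups. Hspa8 and Hsph1, its exchange factor, gave r = 0.85 and rho = 0.83, with 0.83 without the 2 farthest libraries and 12 of 12 groups positive. Both had an adjusted permutation p of 1e-05, the smallest these resamples can give.

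Hspa1b also rose and fell with Hsp90aa1 (r = 0.69, rho = 0.66, 0.65 without the 2 farthest, 12 of 12 groups positive) and with its copy Hspa1a (0.70, 0.60, 0.65, 9 of 12). For Hspb1 the values were r = 0.52, rho = 0.51 and 0.50, with 10 of 12 groups positive. The head-to-head pair Hspd1 and Hspe1 gave r = 0.73, rho = 0.74 and 0.70 (11 of 12), and the TRiC subunits Cct2 and Cct5 gave 0.66, 0.67 and 0.64 (11 of 12). The permutation p of r was 1e-05 for each of these 5 pairs after adjustment. Hsf1 mRNA was only weakly related to Hspa1b, with r = 0.29, rho = 0.28 and 0.35 (9 of 12; adjusted permutation p = 0.0386 and 0.0373).

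Cirbp, which encodes a cold-inducible RNA-binding protein, moved the opposite way to Hspa1b. Their r was -0.59 and rho -0.59 (adjusted permutation p = 1e-05), with r = -0.55 without the 2 farthest libraries and 0 of 12 groups positive.

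Measured against the mean of the other 32 genes in the same libraries, the closest followers were Hsph1 (r = 0.95), Hsp90aa1 (0.93) and Chordc1 (0.92). The most distant were Hsf1 (0.28), Dnaja2 (0.20) and Cryab (0.03). These values are a description, since all genes of a library share its scaling. The libraries furthest from their group mean, averaged over the 33 genes, were DBA/2J M Low Protein replicates 6 and 4 at log2 deviations of 0.56 and -0.47, DBA/2J M Control replicate 6 at 0.51 and C57BL/6J M Low Protein replicate 1 at -0.46. None of these 4 was among the ribosomal-rich libraries. Titles carry a letter, N or R, of unstated meaning. In DBA/2J M Control, N libraries lay at -0.06 to 0.51 and R libraries at -0.38 to -0.19. In DBA/2J M Low Protein, N libraries lay at 0.03 to 0.56 and R libraries at -0.47 to -0.16. In all other groups the letters overlapped. The part of the letter in these deviations and in the correlations was not tested.

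**Figure D5:**
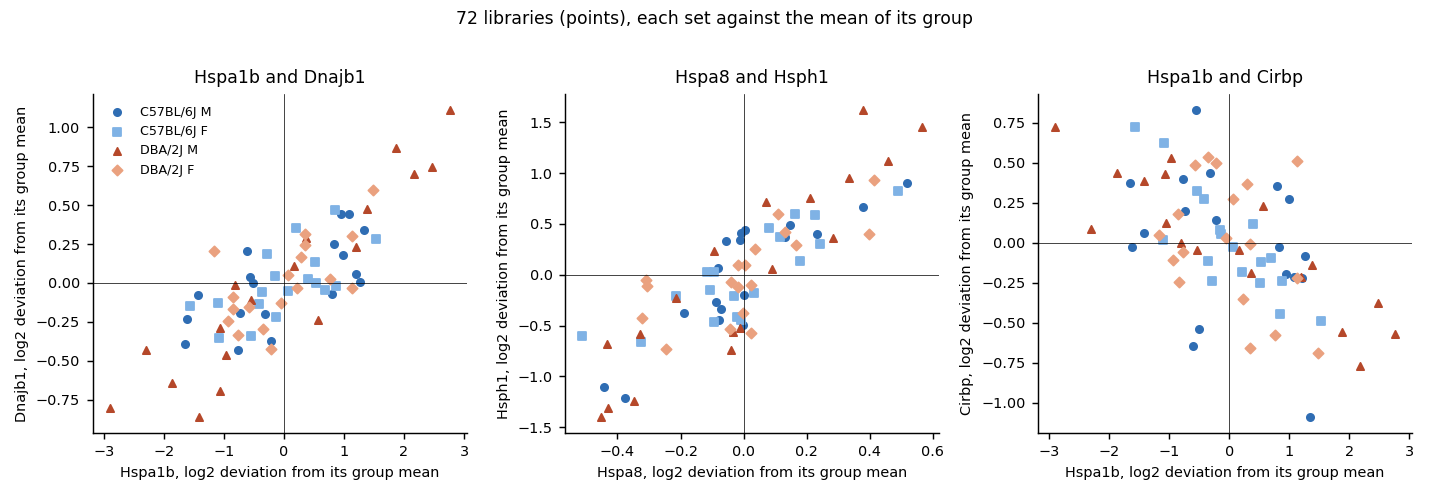
Deviations of log2 CPM from the group mean, 1 point per library, for Hspa1b against Dnajb1, Hspa8 against Hsph1 and Hspa1b against Cirbp, with a marker for each strain and sex. The first and second panels slope upward (r = 0.82 and 0.85) and the third downward (r = -0.59).

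Genes of neighbouring folding pathways were read in C57BL/6J males on Low Protein for comparison. The counts on these lists stand beside 9.78% of all genes called in this comparison and 4.08% called higher. They are a description only, and were not read again without the libraries rich in ribosomal-like RNA. Of 33 other cytosolic chaperones and co-chaperones listed, 30 were tested, 4 rose and 0 fell, with a median log2 fold change of 0.10. They were Cacybp at 0.53 ± 0.15, adjusted p = 0.0142, Ahsa2, a relative of Ahsa1, at 0.49 ± 0.13, adjusted p = 0.0106, Ptges3, the HSP90 co-chaperone p23, at 0.29 ± 0.09, adjusted p = 0.0232 and Dnajb6, an HSP40, at 0.29 ± 0.08, adjusted p = 0.00935. Of 6 prefoldin subunits, which hand clients to TRiC, 0 were called. Of 12 other mitochondrial chaperones and proteases 1 rose, Grpel2, an exchange factor of mitochondrial HSP70, from 41.9 to 55.5 CPM on Control to 74.1 to 118 CPM on Low Protein without overlap. The log2 fold change came to 0.80 ± 0.16, adjusted p = 0.000282.

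Of 18 chaperones of the endoplasmic reticulum 4 rose and 0 fell, with a median log2 fold change of 0.31. They were Creld2 at 0.97 ± 0.32, adjusted p = 0.0379, Serpinh1, the collagen chaperone, at 0.63 ± 0.22, adjusted p = 0.0484, Pdia6, a disulfide isomerase, at 0.51 ± 0.16, adjusted p = 0.0339 and Hspa13 at 0.30 ± 0.10, adjusted p = 0.0467. Hspa5 (BiP), the HSP70 of that compartment, had a log2 fold change of 0.32 ± 0.22, adjusted p = 0.4. Of 9 regulators of heat shock factors and temperature-responsive RNAs 1 fell, Cirbp, from 10.5 to 14.8 CPM on Control to 4.21 to 8.56 CPM on Low Protein without overlap. Its log2 fold change was -0.87 ± 0.24, adjusted p = 0.0116. Rbm3, a further cold-inducible gene, was at -0.01 ± 0.14, adjusted p = 0.977. On the same list of endoplasmic reticulum chaperones, 7 of 18 were higher in males than in females on Control in C57BL/6J and 13 of 18 in DBA/2J, with 0 lower in either strain, beside 20.8 and 18.3% of all genes called in either direction. With library totals in place of scaling factors, the share higher in males among all called genes in these comparisons fell to 5.32 and 7.59%, and the count on this list was not computed.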

How the data were processed

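Liver RNA was read as stranded poly(A) libraries whose 2 lanes were merged, per the labels' protocols. The authors deposited expected counts per gene; RSEM, limma, edgeR and R 3.4.3 are listed in the submitters' processing notes, and the sources used here do not give the aligner or genome build. The authors' deposited table also holds log2 fold changes, adjusted p-values and an F statistic score for 17575 genes, of which the score was not used.

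Expected counts were rounded (11.6% were not whole), genes were filtered with filterByExpr (19362 of 51912 kept), scaled by TMM and fitted with 1 mean per group over all 72 libraries in edgeR 4.0.16 (quasi-likelihood, R 4.3.3), with Benjamini-Hochberg adjustment over all genes tested. A gene was called at an adjusted p below 0.05. The SE is the log2 fold change divided by the square root of F, and 95% intervals use 1.96 SE. Levels are CPM, with a prior count of 2 on the log2 scale. DESeq2 1.42.0, limma 3.58.1 and the further alternatives are in the closing section. Correlations used numpy 2.4.6 under Python 3.11.15. The fit was tested on simulated data.

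All 33 genes are named. From each pathway list up to 4 called in C57BL/6J males on Low Protein are named by smallest p, and always Cirbp, Rbm3 and Hspa5. Members and lists were chosen with earlier results of these data known. Symbols matched 51642 genes, and gene positions and exon lengths came from GENCODE M21 on GRCm38. Replicates were numbered in accession order and pair no samples across groups.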

Additional observations from a re-analysis of the deposited data

Results flagged for a closer look

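In 19 of 396 combinations of gene and group (4.8%), 1 library stood apart from the other 5 by a gap that chance gives in about 5% of groups. DBA/2J F Low Protein replicate 2 was the high library for 5 genes, at 2.39 CPM for Hspa1b, 750.2 CPM for Hspa8, 49.6 CPM for Hsph1, 18.2 CPM for Dnajb1 and 38.1 CPM for Chordc1. Hspa1a stood high at 5.27 CPM in DBA/2J M Low Protein replicate 6, at 0.295 CPM in C57BL/6J F Medium Protein replicate 6 and at 0.242 CPM in DBA/2J F Medium Protein replicate 2.

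Hspa8 was high in C57BL/6J M Medium Protein replicate 3 at 1950.4 CPM, Hspa4 in C57BL/6J F Medium Protein replicate 6 at 107.7 CPM and Dnaja2 in DBA/2J M Control replicate 5 at 67.7 CPM. Dnajb1 was high in C57BL/6J F Low Protein replicate 5 at 15.4 CPM and Cct6a in C57BL/6J M Low Protein replicate 2, a library rich in ribosomal-like RNA, at 91.7 CPM. Cryab was high in C57BL/6J F Medium Protein replicate 4 at 1.85 CPM and in DBA/2J M Low Protein replicate 5 at 1.81 CPM. Hsf1 was high in DBA/2J F Medium Protein replicate 5 at 7.08 CPM, where Cct4 was low at 51.1 CPM. Low values were also found for Dnajb4 in C57BL/6J F Control replicate 1 at 27.7 CPM and for Cct2 in C57BL/6J M Medium Protein replicate 6, rich in ribosomal-like RNA, at 63.1 CPM.

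In C57BL/6J the sexes differed in their response to Low Protein, male minus female on the log2 scale, by 1.22 for Hspa4l, 1.36 for Hsp90aa1, 0.77 for Hsp90ab1, 0.94 for Stip1, 0.63 for Ahsa1, 0.91 for Chordc1, 0.38 for Cct5 and 0.37 for Tcp1. Between males of the strains, DBA/2J minus C57BL/6J, it differed by -2.29 for Hspb1 and -0.44 for Hspd1. Each passed the edgeR test of the difference itself.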

How the results depend on the processing

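With RLE size factors and with DESeq2, all 61 called values kept their direction and their side of the threshold. Over the other alternatives 1 value changed sign, Dnaja2 between the sexes of DBA/2J, at -0.053 with library totals (adjusted p = 0.594). Without the libraries rich in ribosomal-like RNA 38 of the 61 were no longer called, with library totals 15, with no filter 20, with limma-voom 10, with the compared groups alone 17 of 59, with 1 library per title number 21, with the title letter as a term 9 and with the ribosomal-like share as a term 13. The last 2 terms and the mean over the 3 diets were added after seeing the data. Hspa1a and Hspa1b summed to 1 gene kept its side of the threshold in 20 of 21 comparisons, and a prior count of 0.5 kept all 9 correlations.

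Counts of called chaperone genes moved by over 1.5 times as follows. The share of all genes called under each alternative is not given beside them, so the moves cannot be called particular to these genes. For Low Protein against Control in C57BL/6J males 16 became 26 with library totals and 1 without the ribosomal-rich libraries. In C57BL/6J females 0 became 1 with DESeq2. For Medium Protein in C57BL/6J males 0 became 1 with DESeq2 and 1 with the share term. For Low Protein against Medium Protein there, 2 became 15 with library totals, 1 with no filter, 0 with the compared groups alone and 1 without the ribosomal-rich libraries. For the mean Low Protein effect 3 became 13, 1 with no filter and 1 without the ribosomal-rich libraries. For the sex difference of the effect in C57BL/6J 8 became 22 with library totals, 4 with no filter, 5 with the compared groups alone, 0 without the ribosomal-rich libraries, 5 with the letter and 3 with the share term. For the strain difference in males 2 became 14 with library totals, 4 with DESeq2, 1 with the letter, and 0 with no filter, limma-voom, 1 library per number, the share term or without the ribosomal-rich libraries.

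Between the sexes on Control, 7 in C57BL/6J became 17 with library totals, 4 with the compared groups alone, 2 without the ribosomal-rich libraries, 3 with 1 library per number and 20 over the 3 diets. In DBA/2J 11 became 5 with library totals, 6 with limma-voom, 6 with 1 library per number and 19 over the 3 diets. Between the strains, 5 in males became 3 without the ribosomal-rich libraries, 3 with 1 library per number and 11 over the 3 diets. In females 7 became 3 with library totals, 4 with no filter and 19 over the 3 diets. With library totals the share higher among all called genes also went from 37.1 to 90.8% for Low Protein against Medium Protein in C57BL/6J males, from 40.6 to 94.8% for the sex difference of the effect, from 68.5 to 10.8% for its strain difference in males and from 48.9 to 67% for strain on Control in males.

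With 1 library left out at a time, the count of called genes for Low Protein against Control ran from 11 to 18 in C57BL/6J males, from 0 to 1 in C57BL/6J females and was 0 in DBA/2J. It ran from 1 to 7 for the mean effect, 4 to 10 for the sex difference in C57BL/6J, 0 to 4 for the strain difference in males, 4 to 9 and 6 to 13 for sex on Control in C57BL/6J and DBA/2J, and 3 to 5 and 3 to 12 for strain in males and females. For these fits too the share of all genes called is not given. No paired analysis was possible because the replicates are numbered in accession order and no label ties samples across groups.

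Hspa1a, at 0 in 13 libraries, is limited by depth, and counts that are not whole, from reads shared with other loci, make single values less certain. They were not whole in 100% of libraries for Hspa8, Hsp90aa1 and Stip1, in 98.6% for Dnaja1, Cct8 and Tcp1, in 95.8% for Hspa1b and Hspd1, in 79.2% for Hspa1a and in 73.6% for Cct6a and Cct7.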
